A study of Mus musculus with 18 samples.

Results

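Solute carrier genes encode many of the membrane proteins that move amino acids, sugars, nucleosides, metals, ions and vitamins into and out of cells and organelles. Families are numbered by sequence relatedness, and most carriers work either by facilitated diffusion or by coupling a solute to a gradient of sodium, protons or a second solute. In fibroblasts the plasma membrane carriers supply nutrients for growth. Most members of the family numbered 25 lie in the inner mitochondrial membrane and exchange nucleotides, metabolites and metals with the cytosol. The genes described here were selected on their annotation symbol, which had to begin with Slc and a digit, and on the deposited detection p-values. A probe counted as detected on an array at a detection p-value under 0.05, and had to be detected on at least 3 of the 18 arrays. The genes Slc7a11, Slc2a1, Slc2a3 and Slc16a3 were left out of the set. The array carried 352 such genes on 642 probes, and 190 genes on 274 probes met the rule, out of 10902 genes tested in all.

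Expression was measured on Illumina mouse bead arrays in primary embryonic fibroblasts of male C57BL/6 mice, derived from littermate embryos of day 13.5. Wild-type cells and cells with a knockout of Dusp5, which encodes a nuclear phosphatase of the kinase ERK, were grown in serum-containing medium and treated with 100 ng/ml of TPA for 0, 1 or 3 h. TPA is a phorbol ester that activates protein kinase C and, through it, ERK. Each of the 6 groups had 3 arrays, and no group received solvent alone, so a TPA difference also holds any effect of handling or time. The labels do not say whether the arrays of a group came from separate cultures or embryos, so the p-values reflect no more than the scatter among these arrays, which may be technical.

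Mean raw signal per array ranged from 236 to 357, detected probes from 16675 to 18348, and detected solute carrier genes from 150 to 167. Raw signal moved with the TPA comparison in wild-type cells, at 296 to 357 on the 0 h arrays and 262 to 274 on the 3 h arrays, and its part in the results was not tested. In knockout cells the ranges at 0 h (259 to 314) and 3 h (241 to 299) overlapped. The Dusp5 probe read 54.1%, 51.1% and 63.5% of its wild-type signal in knockout cells at 0 h, 1 h and 3 h. On the log2 scale wild-type arrays read 9.18 to 9.22 and knockout arrays 8.28 to 8.36 at 0 h, 11.07 to 11.23 and 10.04 to 10.31 at 1 h, and 10.49 to 10.71 and 9.87 to 10.03 at 3 h. The probe thus rose with TPA in both genotypes, by 1.95 and 1.87 at 1 h (limma adjusted p = 4.61e-12 and 7.40e-12), and the groups of the genotypes did not overlap at any time. Whether it lies in the deleted part is not known from the sources used here. Of 11 fibroblast markers 9 were detected on all arrays. Markers of other cells moved with TPA for epithelial cells (2 of 4 tested higher at 3 h in both genotypes, Cldn4 and Krt18) and for macrophages and blood (1 of 4, Cd14). In knockout cells at 3 h, 1 of 2 endothelial markers was lower (Kdr at −0.38) and 1 of 2 neural and glial markers higher (Nes at 0.47). The summed normalized signal of the 4 tested epithelial markers was 132 to 157 at 0 h and 217 to 224 at 3 h on wild-type arrays, and 136 to 155 and 233 to 256 on knockout arrays. For the macrophage and blood markers these ranges were 615 to 774 and 698 to 748 in wild type and 571 to 687 and 680 to 801 in the knockout. The endothelial sum on knockout arrays was 53.4 to 58.2 at 0 h and 50.2 to 51.7 at 3 h. The markers Krt5, Epcam, Ptprc and Itgam were detected on no array. However, all 4 tested macrophage and blood markers and 2 of the 4 tested epithelial markers were detected on all arrays. The part of such cells in the results below was not tested. In these bulk samples, fewer cells of a type and less RNA per cell cannot be told apart.

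Of the 190 genes, 127 were detected on all 18 arrays and 63 on fewer. The best probe of 7 genes reached exactly 3 arrays, among them Slc17a6, Slc7a8 and Slc9a2, and 12 genes, among them Slc25a42 and Slc37a4, just missed the rule with 2 arrays. A further 39 genes were detected on 1 array and 111 on none. Classes were assigned by family number, so a class can also hold carriers of other solutes. By class, detection was widest for metal and heme carriers (25 of 33 genes on the array), mitochondrial carriers (32 of 46), vitamin and choline carriers (11 of 16) and amino acid and peptide carriers (28 of 42). Carriers of nucleosides and nucleotide sugars (22 of 36) and of sugars (16 of 31) lay between. Inorganic ion carriers (20 of 50), neurotransmitter and osmolyte carriers (13 of 33), and carriers of carboxylates, organic ions and fatty acids (17 of 58) had the smallest detected shares. Of the rest, 4 symbols name no carrier but an adaptor or a neighbouring gene, and Slc66a1 and Slc66a2 fell in none of the 9 classes. The detection rule fixed which genes were measured, so these shares are a description.

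Comparisons used log2 values after background correction and quantile normalization, and a gene was called at a Benjamini-Hochberg adjusted p below 0.05 in limma, adjusted over all 10902 genes. Differences are on this log2 scale, given with the standard error (SE) where one is printed, and each group mean rests on n = 3 arrays. Subtracting background widens the differences of dim probes. For 29 of the 44 differences named here, the value was more than 1.5 times that in the authors' normalized table, by up to 3.74 times for Slc7a2, a dim probe.

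With TPA a limited set of carriers rose and a smaller one fell, and Slc20a1, Slc25a37 and Slc29a1, with the 3 largest differences in wild-type cells, were called in both genotypes. At 3 h in wild-type cells 25 of the 190 genes were higher and 7 lower. These are 13.2% and 3.68% of the genes, beside 7.81% higher and 8.19% lower among all genes tested. The higher genes include Slc17a6, detected in that group alone, and number 24 without it. In knockout cells 20 were higher and 12 lower, or 10.5% and 6.32%, beside 8.25% and 10.1% among all genes tested. The median difference was 0.03 in wild-type and 0.01 in knockout cells, and 0.01 and −0.02 over all genes, so the bulk of the carriers lay near 0. Restricted to the 127 genes detected on all arrays, the counts were 21 higher and 6 lower in wild-type cells and 16 higher and 11 lower in knockout cells. The shares over all genes above are not restricted in this way, so these counts cannot be set against them.

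The split between higher and lower genes depended on the scaling. Scaling each array to its median over all probes moved the median difference of all tested genes by −0.32 in wild-type and −0.10 in knockout cells at 3 h, and gave 9 higher and 58 lower carriers in wild-type and 9 and 15 in knockout cells. Of all 10902 genes tested it called 4821 in wild-type cells, 5.39% of them higher, and 1611 in knockout cells, 26.5% of them higher. With arrays set to a common median of the tested genes, a shift of 0.10 in wild-type cells, the counts were 51 higher and 6 lower in wild-type and 22 and 9 in knockout cells. Here 2971 of all genes tested were called in wild-type cells, 70.8% of them higher, and 1881 in knockout cells, 55.9% of them higher. The scalings thus shifted the calls of all genes and not those of the carriers alone. Under the main setting, both median scalings, the authors' values and values without background correction, 6 of the 25 higher and 6 of the 7 lower genes stayed called in wild-type cells, and 9 of 20 and 8 of 12 in knockout cells. Without array 3 of wild type at 0 h or array 3 at 3 h, 19 carriers were called in wild-type cells (15 higher and 4 lower), and without array 2 of the knockout at 0 h, 20 were called in knockout cells (12 higher and 8 lower).

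**Figure D1:**
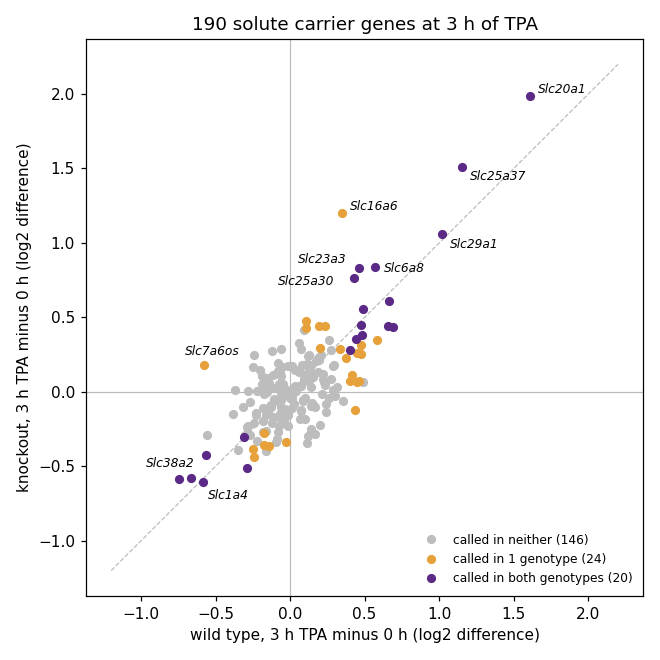
Log2 difference between 3 h of TPA and 0 h for the 190 solute carrier genes, in wild-type cells on the horizontal axis and in Dusp5 knockout cells on the vertical axis, with the dashed line marking equal values. The 20 genes called in both genotypes lie near that line, with Slc20a1, Slc25a37 and Slc29a1 at the upper right and Slc38a2 and Slc1a4 at the lower left, while 24 were called in 1 genotype and 146 in neither. Slc16a6 is drawn at its fitted difference.

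The 3 h lists of the genotypes share no arrays. Their calls are still not independent, since both use the same spread estimate per gene and a joint normalization. The lists had 14 higher genes in common, which is 56% of the wild-type list and 70% of the knockout list. For the higher genes of all genes tested these shares were 62.5% and 59.2%. The carrier lists had 6 lower genes in common, 85.7% and 50% of the lists, beside 67.3% and 54.4%, and no gene was called in opposite directions. Across the 190 genes, which are not independent replicates, the 3 h differences of the genotypes correlated with Pearson r of 0.75 and Spearman rho of 0.60, against a Pearson r of 0.78 over all genes tested. The 14 shared higher genes were Slc7a2, Slc20a1, Slc40a1, Slc41a2, Slc48a1, Slc25a30, Slc25a33, Slc25a37, Slc25a44, Slc17a5, Slc6a8, Slc29a1, Slc35e3 and Slc23a3. The 6 shared lower genes were Slc1a3, Slc1a4, Slc38a2, Slc7a6, Slc39a13 and Slc44a2. Under all scalings tried, 4 of the 14 (Slc20a1, Slc25a37, Slc29a1 and Slc7a2) and 4 of the 6 (Slc1a4, Slc38a2, Slc39a13 and Slc7a6) stayed called in both genotypes.

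Slc20a1, a plasma membrane cotransporter of sodium and phosphate, had the largest difference of the set in both genotypes. In wild-type cells its normalized log2 signal was 6.37, 6.85 and 6.97 at 0 h, 7.27, 7.12 and 7.67 at 1 h, and 8.46, 8.14 and 8.42 at 3 h. The knockout arrays read 6.61, 6.73 and 6.99 at 0 h, 7.63, 7.77 and 8.11 at 1 h, and 8.28, 9.04 and 8.99 at 3 h. All arrays at 1 h and 3 h were above all arrays at 0 h within each genotype. The difference at 3 h was 1.61 ± 0.20 (SE, a 3.05-fold higher signal, limma adjusted p = 3.92e-06) in wild-type cells and 1.99 ± 0.20 (3.97-fold, adjusted p = 1.51e-07) in knockout cells. At 1 h it was 1.05 (adjusted p = 0.00142) in knockout cells, and 0.62 (adjusted p = 0.10) in wild-type cells. Both dimmer probes of the gene gave a call in the same direction at 3 h in each genotype, but with smaller differences. They stood at 0.48 and 0.68 in wild-type and at 0.86 and 0.83 in knockout cells. At 1 h in wild-type cells those probes were called at 0.81 and 0.69, although the brightest probe was not. Neither dimmer probe thus showed a further rise from 1 h to 3 h in wild-type cells. Slc20a1 was the only detected member of its family.

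**Figure D2:**
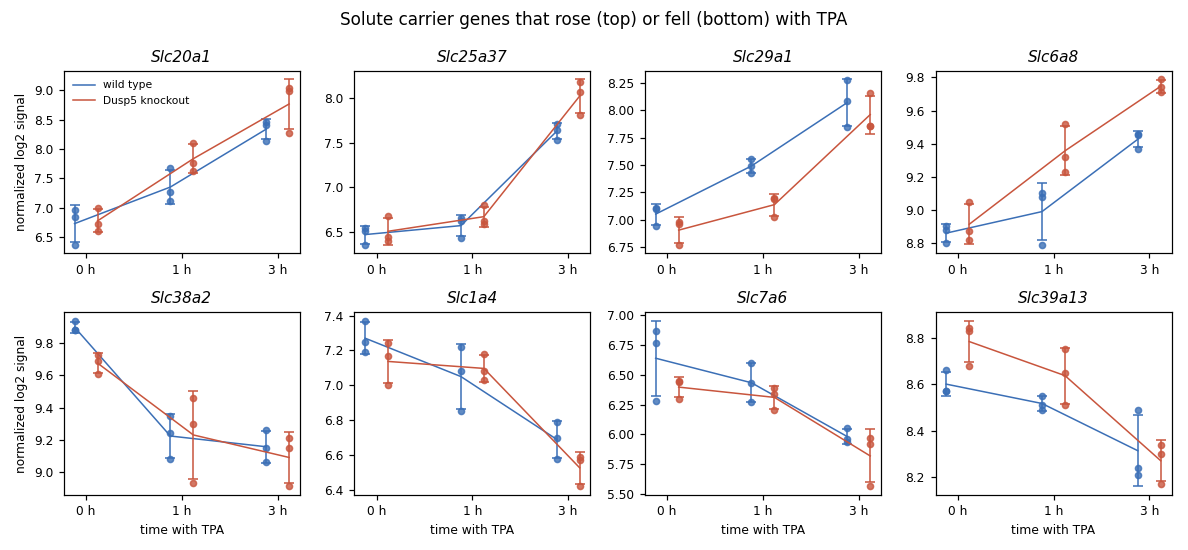
Normalized log2 signal of 8 solute carrier genes against time with TPA, with 1 point per array, lines through the group means and bars of 1 SD (n = 3 arrays), in blue for wild type and red for the Dusp5 knockout. The vertical axes differ between panels. The 3 h points of the upper 4 genes lie above the 0 h points in both genotypes, and those of the lower 4 genes lie below.

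Promoter sequences are shown for a pair of genes that rose and a pair that fell in both genotypes, since the results turn on them. They are the RefSeq promoters of build GRCm38.p6, reaching from 250 bases before to 50 after the gene's start and taken at the most upstream start where several are listed. They lie at chr2:129198523-129198822 on the plus strand for Slc20a1, chr17:45599569-45599868 on the minus strand for Slc29a1, chr15:96699679-96699978 on the minus strand for Slc38a2 and chr11:20332664-20332963 on the minus strand for Slc1a4. Capitals mark matches to any of the searched motifs.
Slc20a1: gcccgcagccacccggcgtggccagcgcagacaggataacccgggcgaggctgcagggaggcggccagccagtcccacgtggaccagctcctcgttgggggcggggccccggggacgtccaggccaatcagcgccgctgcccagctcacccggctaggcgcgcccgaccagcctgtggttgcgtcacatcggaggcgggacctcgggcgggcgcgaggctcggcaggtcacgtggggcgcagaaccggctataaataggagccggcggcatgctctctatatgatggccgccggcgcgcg
Slc29a1: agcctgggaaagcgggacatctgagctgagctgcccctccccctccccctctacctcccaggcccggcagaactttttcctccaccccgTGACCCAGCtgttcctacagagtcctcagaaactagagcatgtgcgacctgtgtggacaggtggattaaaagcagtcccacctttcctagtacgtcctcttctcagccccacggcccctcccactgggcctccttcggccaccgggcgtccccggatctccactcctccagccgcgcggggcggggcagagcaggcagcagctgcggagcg
Slc38a2: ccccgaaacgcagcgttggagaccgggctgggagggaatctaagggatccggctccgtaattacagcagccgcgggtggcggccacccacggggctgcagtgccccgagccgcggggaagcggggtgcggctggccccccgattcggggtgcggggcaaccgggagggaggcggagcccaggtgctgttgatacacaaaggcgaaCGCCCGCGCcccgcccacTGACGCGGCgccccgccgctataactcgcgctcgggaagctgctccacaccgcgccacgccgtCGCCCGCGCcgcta
Slc1a4: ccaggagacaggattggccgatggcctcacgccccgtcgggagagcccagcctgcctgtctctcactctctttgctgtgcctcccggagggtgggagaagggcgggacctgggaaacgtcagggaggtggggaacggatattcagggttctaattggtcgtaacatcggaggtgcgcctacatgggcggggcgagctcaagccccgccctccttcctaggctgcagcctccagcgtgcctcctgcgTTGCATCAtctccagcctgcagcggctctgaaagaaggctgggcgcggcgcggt

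Both strands were searched for AP-1 (TGANTCA), CRE (TGACGTCA), EGR (GCGNGGGCG), ATF4 (TGATGNAA) and antioxidant response (TGACNNNGC) motifs, whose letters can overlap with one another. Among 27025 promoters in the table these motifs were present in 7.92%, 1.85%, 5.53%, 4.06% and 12.4%, and among the 148 carriers with a promoter in 6.08%, 0.676%, 14.2%, 3.38% and 19.6%. The Slc20a1 window held none of them. The Slc29a1 window held an antioxidant match, the Slc38a2 window a pair of EGR matches and an antioxidant match, and the Slc1a4 window an ATF4 match across the gene's start. A match is a description of letters and not of binding. Of the 14 genes higher in both genotypes 8 had a promoter in the table, and the 6 lower genes all had one. AP-1 and CRE matches were in 0 of both sets, EGR matches in 1 of the 8 and 2 of the 6, ATF4 matches in 1 of each, and antioxidant matches in 3 of the 8 and 4 of the 6. No test was made on so few promoters.

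The mitochondrial carriers were taken as all genes of family 25. At 3 h, 8 of the 32 were higher and 0 lower in wild-type cells, and 4 were higher and 1 lower in knockout cells. Among all genes tested 7.81% were higher and 8.19% lower in wild-type cells, and 8.25% and 10.1% in knockout cells. The class median was 0.14 in wild-type and 0.05 in knockout cells. With median scaling over all probes, 1 of the 32 was higher and 10 were lower in wild-type cells, with a class median of −0.17, and 3 were higher and 1 lower in knockout cells. That scaling called 4821 of all genes tested in wild-type and 1611 in knockout cells, 5.39% and 26.5% of them higher. Of the 8 higher wild-type genes, Slc25a37 alone kept its call there. All 4 genes higher in knockout cells, Slc25a37, Slc25a30, Slc25a44 and Slc25a33, were also higher in wild-type cells. The other wild-type calls were Slc25a28, the second mitoferrin, at 0.45, Slc25a45 at 0.44, Slc25a53 at 0.42 and Slc25a47 at 0.37, and each of these was lost when 1 array was left out. Slc25a47 stood at −0.0076 under median scaling over all probes.

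Slc25a37, mitoferrin 1, carries iron into mitochondria for heme and iron-sulfur cluster synthesis. Its log2 signal in wild-type cells was 6.55, 6.51 and 6.36 at 0 h, 6.62, 6.66 and 6.44 at 1 h, and 7.71, 7.64 and 7.53 at 3 h. The knockout arrays read 6.68, 6.40 and 6.45 at 0 h, 6.63, 6.59 and 6.80 at 1 h, and 8.07, 7.81 and 8.18 at 3 h. The 0 h and 1 h arrays overlapped and the 3 h arrays stood above both in each genotype. The 3 h difference was 1.15 ± 0.11 (SE, limma adjusted p = 1.38e-07) in wild-type and 1.51 ± 0.11 (adjusted p = 1.70e-09) in knockout cells.

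Slc25a44 supplies mitochondria with branched-chain amino acids in brown fat. It was higher by 0.67 ± 0.12 (limma adjusted p = 4.93e-04) in wild-type and 0.61 ± 0.12 (adjusted p = 9.57e-04) in knockout cells at 3 h. Slc25a30, also called kidney mitochondrial carrier protein, rose by 0.43 ± 0.10 (adjusted p = 0.00413) in wild-type cells, from 6.96, 6.98 and 6.80 to 7.38, 7.26 and 7.39. In knockout cells it rose by 0.76 ± 0.10 (adjusted p = 6.22e-06), from 6.70, 6.51 and 6.63 to 7.50, 7.17 and 7.44, and the groups did not overlap in either genotype. Slc25a33, which carries pyrimidine nucleotides, was higher by 0.69 ± 0.12 (adjusted p = 3.55e-04) in wild-type cells and by 0.43 (adjusted p = 0.0148) in knockout cells, a call lost when 1 array was left out. The wild-type calls of Slc25a44, Slc25a30 and Slc25a33 were lost under median scaling over all probes.

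Slc25a25, a calcium-regulated carrier that exchanges ATP-magnesium for phosphate, was called at 1 h in knockout cells. Its signal there was 6.70, 6.45 and 6.48 at 0 h, 7.32, 7.17 and 7.02 at 1 h, and 6.48, 6.69 and 6.57 at 3 h. The 1 h arrays stood apart, and the 3 h arrays were back in the range of 0 h. The 1 h difference was 0.63 ± 0.13 (limma adjusted p = 0.00398), and the wild-type arrays at 1 h (6.82, 6.76 and 6.87) overlapped with those at 0 h (6.28, 6.46 and 6.92). The knockout call was lost under median scaling over all probes. Slc25a38, the mitochondrial glycine carrier needed for heme synthesis, fell by 0.39 ± 0.10 (adjusted p = 0.00782) at 3 h in knockout cells, and its other 2 probes gave no call.

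**Figure D3:**
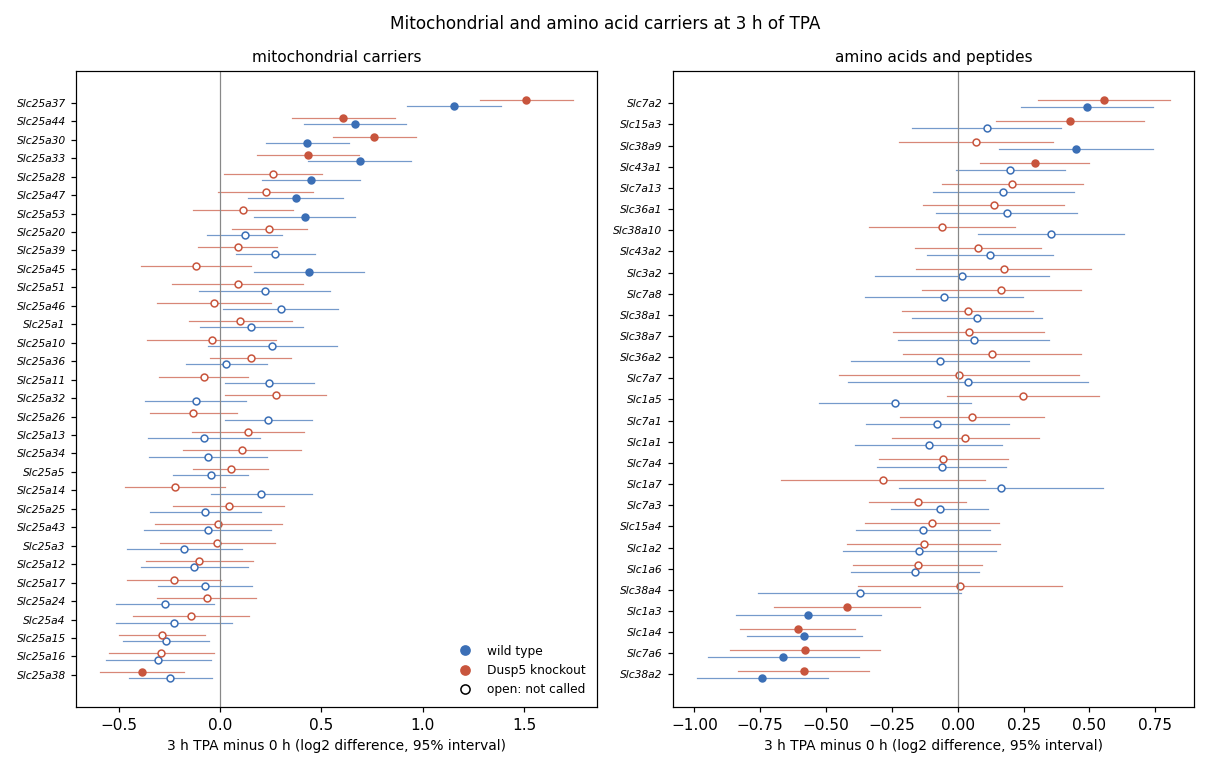
Log2 difference between 3 h of TPA and 0 h with 95% intervals for the 32 mitochondrial carriers on the left and the 28 amino acid and peptide carriers on the right, ordered by the mean of both genotypes, in blue for wild type and red for the Dusp5 knockout, with filled points for called genes. Slc25a37 stands furthest right among the mitochondrial carriers, and Slc38a2, Slc7a6, Slc1a4 and Slc1a3 are called lower in both genotypes among the amino acid carriers.

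Amino acid and peptide carriers moved both ways. At 3 h, 2 of 28 were higher and 4 lower in wild-type cells, and 3 were higher and 4 lower in knockout cells, with class medians of −0.06 and 0.03. Over all genes tested the shares were 7.81% and 8.19% in wild-type and 8.25% and 10.1% in knockout cells. The 4 lower genes were the same in both genotypes: Slc38a2, Slc7a6, Slc1a4 and Slc1a3.

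Slc38a2, the sodium-coupled transporter SNAT2 for small neutral amino acids, gave a signal in wild-type cells of 9.88, 9.88 and 9.94 at 0 h, 9.24, 9.08 and 9.35 at 1 h, and 9.26, 9.06 and 9.15 at 3 h. The knockout signal was 9.61, 9.69 and 9.73 at 0 h, 9.46, 8.93 and 9.30 at 1 h, and 9.21, 8.91 and 9.15 at 3 h. Every array with TPA lay below every array of the same genotype at 0 h. The gene fell by 0.68 ± 0.12 (limma adjusted p = 0.00112) at 1 h and by 0.74 ± 0.12 (adjusted p = 1.26e-04) at 3 h in wild-type cells, and by 0.44 (adjusted p = 0.0297, lost without 1 array) and 0.58 ± 0.12 (adjusted p = 0.00117) in knockout cells. A second bright probe was called at 3 h in both genotypes, at −0.94 and −0.60, but gave no call at 1 h, where it stood at −0.46 and 0.07. The dim remaining probe gave no call, at 0.22 and −0.04 at 3 h.

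Slc1a4, the exchanger ASCT1 for alanine, serine and cysteine, had a signal of 7.19, 7.25 and 7.37 at 0 h and 6.79, 6.70 and 6.58 at 3 h in wild-type cells. In knockout cells it was 7.24, 7.17 and 7.0 at 0 h and 6.42, 6.57 and 6.59 at 3 h. The groups did not overlap, and the gene fell by 0.58 ± 0.10 (limma adjusted p = 4.22e-04) and by 0.61 ± 0.10 (adjusted p = 2.09e-04). Slc7a6 encodes the light chain y+LAT2, which pairs with the heavy chain Slc3a2 to exchange arginine for glutamine. It fell by 0.66 ± 0.14 (adjusted p = 0.00173) in wild-type cells, from 6.28, 6.77 and 6.87 to 6.05, 5.96 and 5.93, and by 0.58 ± 0.14 (adjusted p = 0.00428) in knockout cells, from 6.44, 6.45 and 6.30 to 5.56, 5.97 and 5.92. The heavy chain Slc3a2, looked up after the values were seen because it is the partner, stood at 0.02 and 0.17 (adjusted p = 0.963 and 0.541).

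Slc1a3, the glutamate transporter GLAST, fell by 0.57 ± 0.13 (limma adjusted p = 0.00487) at 3 h in wild-type cells. Its signal there went from 5.40, 5.45 and 5.22 to 4.97, 4.60 and 4.79, with the probe detected on all 3 arrays at 0 h and on 2 at 3 h, and the groups did not overlap. The call was lost when arrays were set to a common median of the tested genes. The knockout difference was −0.42 (adjusted p = 0.0305), lost when 1 array was left out. In the other direction Slc7a2, a transporter of cationic amino acids such as arginine, was higher by 0.55 ± 0.12 (adjusted p = 0.00205) in knockout cells, with signals of 4.54, 4.52 and 4.71 at 0 h and 5.27, 4.98 and 5.20 at 3 h. It was detected on 1 knockout array at 0 h and on 3 at 3 h. In wild-type cells it stood at 0.49 (adjusted p = 0.0070), lost when 1 array was left out.

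Of 17 tested genes of the amino acid response, a list that includes Atf4 and its targets, 3 were higher and 0 lower at 3 h in wild-type cells, and 2 were higher and 2 lower in knockout cells. Shares over all genes tested were 7.81% and 8.19% in wild-type and 8.25% and 10.1% in knockout cells. Ddit3, a stress transcription factor, was higher by 1.12 ± 0.16 (limma adjusted p = 3.52e-05) and 0.82 ± 0.16 (adjusted p = 8.74e-04), and Cebpb, another transcription factor, by 1.18 ± 0.09 (adjusted p = 8.24e-09) and 1.35 ± 0.09 (adjusted p = 6.66e-10). At 1 h, 4 of the 17 genes were higher and 1 lower in each genotype. Shares over all genes at 1 h were 1.88% and 1.50% in wild-type and 2.56% and 2.85% in knockout cells. The lower gene of the list was Trib3, a pseudokinase gene. It fell by 0.61 ± 0.11 (adjusted p = 0.00159) in wild-type and by 0.77 ± 0.11 (adjusted p = 7.69e-05) in knockout cells at 1 h. The list median at 3 h was 0.09 in wild-type and −0.09 in knockout cells.

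Among metal and heme carriers 3 of 25 were higher and 1 lower at 3 h in wild-type cells, and 5 were higher and 1 lower in knockout cells, with class medians of 0.07 and 0.08. Shares over all genes tested were 7.81% and 8.19% in wild-type and 8.25% and 10.1% in knockout cells. Under median scaling over all probes 0 were higher and 7 lower in wild-type and 0 and 1 in knockout cells. That scaling called 4821 and 1611 of all genes tested, 5.39% and 26.5% of them higher. Slc48a1, which exports heme from lysosomes, was higher by 0.48 ± 0.12 (limma adjusted p = 0.00569) in wild-type cells and by 0.38 (adjusted p = 0.0244, lost without 1 array) in knockout cells, and both calls were lost under that scaling. Slc41a2, a magnesium carrier, stood at 0.40 ± 0.10 (adjusted p = 0.00525) in wild-type cells but at −0.012 under median scaling over all probes. Slc40a1, the iron exporter ferroportin, was called in both genotypes at 0.48 and 0.45, and both calls were lost without 1 array. The zinc exporter Slc30a1 and the divalent metal carrier Slc11a1 were called in knockout cells at 0.48 and 0.44, each lost without 1 array. These 2 genes and ferroportin were named after their values were seen, to complete the class.

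Slc39a13, a zinc transporter of the secretory pathway, fell by 0.51 ± 0.10 (limma adjusted p = 5.06e-04) in knockout cells, from 8.68, 8.84 and 8.83 to 8.34, 8.30 and 8.17. In wild-type cells it moved from 8.57, 8.57 and 8.66 to 8.49, 8.24 and 8.21, a difference of −0.29 (adjusted p = 0.0453) that was lost when 1 array was left out. The groups did not overlap in either genotype, but the other 3 probes gave no call in knockout cells. On a companion list of 14 tested metal handling genes, 3 were higher and 1 lower in wild-type and 4 higher and 1 lower in knockout cells at 3 h. All genes tested gave 7.81% and 8.19% in wild-type and 8.25% and 10.1% in knockout cells. Mt1, a metallothionein that binds zinc and copper, was higher by 1.51 ± 0.12 (adjusted p = 7.22e-09) and 1.62 ± 0.12 (adjusted p = 1.68e-09), and Mt2, its relative, by 0.92 ± 0.23 (adjusted p = 0.00749) and 1.13 ± 0.23 (adjusted p = 0.00111).

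Carriers of nucleosides and nucleotide sugars had 4 of 22 genes higher and 0 lower in wild-type cells at 3 h, and 2 higher and 0 lower in knockout cells, with class medians of 0.10 and 0.08. All genes tested gave 7.81% and 8.19% in wild-type and 8.25% and 10.1% in knockout cells. Under median scaling over all probes the counts were 1 higher and 7 lower in wild-type and 1 and 0 in knockout cells. That scaling called 4821 and 1611 of all genes tested, 5.39% and 26.5% of them higher. Slc29a1, the equilibrative nucleoside transporter ENT1, had a signal in wild-type cells of 7.11, 7.10 and 6.94 at 0 h, 7.49, 7.43 and 7.55 at 1 h, and 8.28, 8.08 and 7.85 at 3 h. In knockout cells it was 6.96, 6.98 and 6.77 at 0 h, 7.02, 7.19 and 7.20 at 1 h, and 8.16, 7.86 and 7.86 at 3 h. The 3 times did not overlap within a genotype. The 3 h difference was 1.02 ± 0.11 (SE, limma adjusted p = 1.05e-06) in wild-type and 1.06 ± 0.11 (adjusted p = 4.93e-07) in knockout cells, or 2.03-fold and 2.08-fold, and a second probe was called in the same direction in both.

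Slc35e4, a relative of nucleotide sugar carriers whose cargo is not settled, was called at 1 h in wild-type cells. Its signal there was 5.60, 5.44 and 5.19 at 0 h and 6.49, 6.22 and 5.92 at 1 h, a difference of 0.80 ± 0.16 (limma adjusted p = 0.00341) between groups that did not overlap. In knockout cells it was 5.80, 6.03 and 5.47 at 0 h and 6.36, 5.93 and 6.10 at 1 h, and those groups overlapped. Slc35e3 of the same family was higher by 0.44 ± 0.09 (adjusted p = 0.00192) at 3 h in wild-type cells, but stood at −0.0014 under median scaling over all probes.

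Among the 13 carriers of neurotransmitters and osmolytes 3 were higher and 0 lower in wild-type cells at 3 h, and 3 were higher and 1 lower in knockout cells, with a class median of 0.07 in both. For all genes tested the shares were 7.81% and 8.19% in wild-type and 8.25% and 10.1% in knockout cells. Slc6a8, the creatine transporter, had a signal of 8.80, 8.90 and 8.88 at 0 h and 9.37, 9.45 and 9.46 at 3 h in wild-type cells, and of 9.05, 8.82 and 8.87 at 0 h, 9.32, 9.23 and 9.52 at 1 h, and 9.71, 9.74 and 9.79 at 3 h in knockout cells. The 3 h arrays stood above the 0 h arrays in both genotypes. The difference was 0.57 ± 0.10 (limma adjusted p = 4.15e-04) and 0.84 ± 0.10 (adjusted p = 2.78e-06), and the wild-type call was lost under median scaling over all probes. Slc17a5, which exports sialic acid from lysosomes, was higher by 0.65 ± 0.15 (adjusted p = 0.00484) in wild-type cells. In knockout cells Slc17a5 stood at 0.44, a call kept under none of the other scalings. Its relative Slc17a6, a vesicular glutamate transporter, was detected only on the 3 arrays of wild type at 3 h and so met the detection rule through the group where it was high.

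The remaining classes held few calls. Of all genes tested 7.81% were higher and 8.19% lower in wild-type cells at 3 h, and 8.25% and 10.1% in knockout cells. Inorganic ion carriers had 1 of 20 higher and 0 lower in each genotype at 3 h, which was Slc20a1. Carriers of carboxylates, organic ions and fatty acids had 1 of 17 higher and 0 lower in each, Slc16a9 in wild-type and Slc16a6 in knockout cells. The sugar class had 1 of 16 higher and 0 lower in wild-type cells and 0 higher and 2 lower in knockout cells. It includes 5 genes of family 5, which also holds carriers of iodide, inositol and vitamins. Vitamin and choline carriers had 1 of 11 higher and 1 lower in wild-type cells and 1 higher and 3 lower in knockout cells. The class medians ranged from −0.09, for vitamin and choline carriers in knockout cells, to 0.09, for carboxylate, organic ion and fatty acid carriers in wild-type cells.

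**Figure D4:**
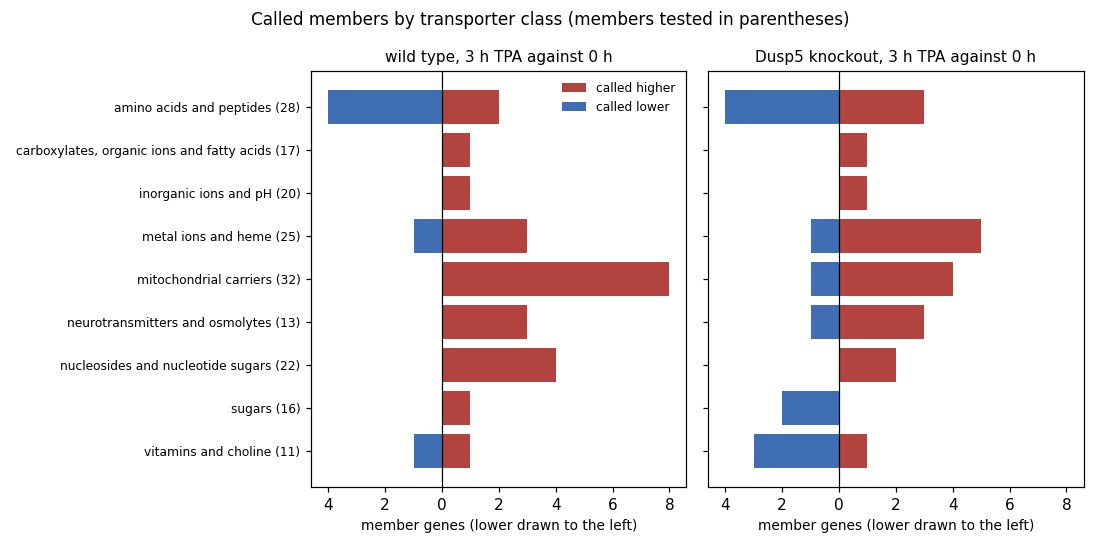
Number of solute carrier genes called higher (red, to the right) or lower (blue, to the left) at 3 h of TPA against 0 h, by transporter class, in wild-type cells on the left and Dusp5 knockout cells on the right, with the number of genes tested in parentheses. Mitochondrial carriers hold 8 higher genes in wild-type and 4 in knockout cells, and amino acid and peptide carriers hold 4 lower genes in each. Of all genes tested, 7.81% were higher and 8.19% lower in wild-type cells, and 8.25% and 10.1% in knockout cells.

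Slc16a6 belongs to the monocarboxylate carriers. In knockout cells its signal was 4.25, 4.38 and 4.60 at 0 h, 4.91, 4.24 and 4.70 at 1 h, and 5.38, 5.51 and 5.94 at 3 h. In wild-type cells it was 4.68, 4.65 and 4.74 at 0 h and 4.75, 5.32 and 5.04 at 3 h. The 3 h knockout arrays stood above all others of the gene. No knockout array at 0 h detected the probe, so its level there has only a bound. The knockout signal at 3 h was at least 1.93-fold higher (fitted difference 1.20 ± 0.17, limma adjusted p = 2.55e-05). This bound takes, for each 0 h array, the lowest signal among detected probes or the probe's own signal where that is higher. A second probe of the gene was called in the same direction, at 0.76, and the dim remaining probe was not, at 0.28 (adjusted p = 0.227). In the authors' normalized values the difference of the probe used was 0.37. The wild-type difference was 0.35 and not called.

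Slc23a3, a relative of the ascorbate carriers, had signals in knockout cells of 4.70, 4.33 and 4.26 at 0 h, 5.11, 5.06 and 5.52 at 1 h, and 5.07, 5.56 and 5.16 at 3 h. It was detected on 1 of the 3 knockout arrays at 0 h and on all at both later times, with no overlap. The difference was 0.80 ± 0.16 (limma adjusted p = 0.00226) at 1 h and 0.83 ± 0.16 (adjusted p = 4.90e-04) at 3 h. With 2 of the 3 baseline arrays below detection these sizes are uncertain, and in the authors' normalized values they were 0.24 and 0.25. In wild-type cells it was 0.46 at 3 h (adjusted p = 0.0490), a call lost when 1 array was left out. Slc2a6, a glucose transporter of intracellular membranes, and Slc66a1, a lysosomal exporter of cationic amino acids, were called at 3 h in wild-type cells at 0.46 (adjusted p = 0.0103) and 0.48 (adjusted p = 0.0232). Each of these calls was lost without 1 array, and those of Slc2a6 and Slc66a1 also under median scaling over all probes. Also lost without 1 array was the call of Slc7a6os, a gene on the opposite strand next to Slc7a6, at −0.58 (adjusted p = 0.0360) with overlapping groups.

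At 1 h few carriers had moved. In wild-type cells 3 were higher and 1 lower (1.88% and 1.50% of all genes tested), and in knockout cells 5 were higher and 1 lower (2.56% and 2.85%). Median scaling over all probes shifted all genes by a median of −0.23 and −0.20, with 2 higher and 8 lower carriers in wild-type and 2 and 15 in knockout cells. Scaling to the tested genes gave 6 and 1, and 9 and 1. Over all genes tested the first scaling called 1381 in wild-type and 1384 in knockout cells, 8.11% and 9.10% of them higher. The second called 642 and 646, 76.6% and 66.1% of them higher. Besides Slc20a1, Slc23a3, Slc25a25, Slc35e4 and Slc38a2, the calls were Slc43a2 at 0.44 and Slc29a1 at 0.44 in wild-type cells and Slc25a30 at 0.37 and Slc6a8 at 0.45 in knockout cells, and each of these 4 was lost without 1 array. Slc43a2, a dim probe detected on 6 of the 18 arrays, also lost its call in the authors' values and without background correction. The calls of Slc29a1, Slc25a30 and Slc6a8 were lost under median scaling over all probes. The wild-type count was 2 without array 2 at 0 h or without any single 1 h array, and the knockout count was 3 without array 2 at 0 h or array 3 at 1 h. The comparisons at 1 h and 3 h use the same 0 h arrays, so their values are given side by side only.

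Few carriers were called between knockout and wild-type cells at any single time. At 0 h no carrier was called in limma at an adjusted p below 0.05, beside 0.963% higher and 0.890% lower among all genes tested, and 28 of 190 (14.7%) were below an unadjusted p of 0.05, beside 15.4% of all genes. Without array 1 of wild type 2 were called. Median scaling over all probes shifted all genes by a median of −0.23 at 0 h and −0.21 at 1 h and gave 0 higher and 26 lower carriers at 0 h and 0 and 10 at 1 h, and scaling to the tested genes gave 5 and 1 at 0 h. At 1 h the only call was Slc40a1, higher in knockout cells (1.09% higher and 1.11% lower among all genes). At 3 h 2 were higher and 3 lower (2.44% and 2.53%), or 2 lower without Slc17a6, which met the detection rule through wild type at 3 h alone.

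Ferroportin (Slc40a1) had a signal at 1 h of 5.73, 5.73 and 5.52 in wild-type and 6.19, 6.12 and 6.13 in knockout cells. The groups did not overlap, and the difference was 0.48 ± 0.12 (limma adjusted p = 0.0415). This call was lost without any 1 of the 6 arrays, and the count of carriers was 0 without array 1 or 3 of wild type or array 1 of the knockout. The 3 h calls were Slc25a37 at 0.39 (adjusted p = 0.0431), Slc66a2, of unassigned class, at 0.32 (adjusted p = 0.0455), Slc19a1 at −0.37 (adjusted p = 0.0335), Slc17a6 and Slc25a46. The last 2 were detected on no knockout array at 3 h, so their differences are bounds, at least 1.20-fold and 1.16-fold higher in wild type, and neither call was kept under any of the 4 other scalings. Each of the 5 was lost when 1 array was left out, and the 3 h count was then 1 to 4. These 5 genes were named after their values were seen.

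Averaged over the 3 times, 8 carriers were higher and 10 lower in knockout cells, or 4.21% and 5.26%, against 5.26% higher and 6.12% lower among all genes tested. The shares are near those of all genes. Marker signal also moved with genotype. In the mean over times Nes was higher in knockout cells (0.42) among neural and glial markers, and among the 4 skeletal muscle markers Acta1 was higher (0.27) and Des lower (−0.37). Of the epithelial markers Cldn4 was higher (0.51) and Krt18 lower (−0.24). The summed signal of the 2 tested neural and glial markers ranged from 327 to 366 on wild-type arrays and from 361 to 418 on knockout arrays at 0 h, 343 to 350 and 448 to 490 at 1 h, and 332 to 391 and 468 to 600 at 3 h. Both tested markers were detected on all arrays, while Sox10 and Gfap were detected on no array. The sum of the 4 tested skeletal muscle markers ranged from 2477 to 2859 on wild-type arrays and from 3014 to 3425 on knockout arrays at 0 h, 2530 to 2740 and 2989 to 3151 at 1 h, and 2639 to 2716 and 2668 to 3201 at 3 h. Of the 4, 2 were detected on all arrays, while Myod1 was detected on none. The part of such cells in the genotype differences was not tested. Of the carriers, 3 higher and 4 lower genes kept their call in every fit without 1 array, and without array 3 of wild type at 0 h the count was 11. Median scaling over all probes shifted all genes by a median of −0.15 and led to 0 higher and 46 lower carriers, and scaling to the tested genes to 25 and 7. Over all genes tested the first scaling called 3675, 3.84% of them higher, and the second 1946, 71.2% of them higher. Under all scalings tried, 0 of the 8 higher and 6 of the 10 lower genes stayed called.

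Higher genes whose calls held without any 1 array were Slc40a1 at 0.33 ± 0.07 (SE, limma adjusted p = 0.00343), Slc25a44 at 0.28 ± 0.07 (adjusted p = 0.0107) and Slc6a8 at 0.25 ± 0.06 (adjusted p = 0.00732). All 3 lost the call under median scaling over all probes. The lower genes were Slc27a3, a fatty acid transport protein with acyl-CoA synthetase activity, at −0.33 ± 0.08 (adjusted p = 0.0136), and Slc1a3 at −0.29 ± 0.08 (adjusted p = 0.0152). The Slc1a3 call was kept under median scaling over all probes but lost under the other 3 scalings, and its difference in the authors' normalized values was −0.084. Slc19a1, the reduced folate carrier, stood at −0.27 ± 0.06 (adjusted p = 0.00260), and Slc7a3, a cationic amino acid transporter, at −0.22 ± 0.05 (adjusted p = 0.00596). The Slc19a1 signal was 8.25, 8.23 and 8.17 in wild-type and 8.08, 8.06 and 8.09 in knockout cells at 0 h, 8.07, 8.11 and 8.07 against 7.84, 7.70 and 7.76 at 1 h, and 8.12, 7.86 and 8.26 against 7.73, 7.58 and 7.83 at 3 h. At each time the knockout arrays of this gene lay below all wild-type arrays.

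**Figure D5:**
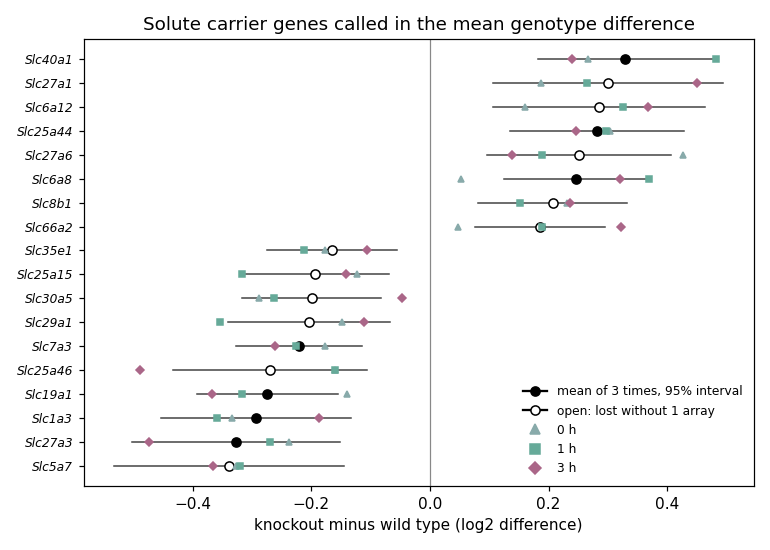
Knockout minus wild type (log2 difference) for the 18 solute carrier genes called in the mean over the 3 times, with circles and 95% intervals for the mean, open where the call was lost without 1 array, and triangles, squares and diamonds for 0 h, 1 h and 3 h. Slc40a1 lies furthest right at 0.33 and Slc27a3 and Slc5a7 furthest left.

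The size of the TPA response was not shown to differ between the genotypes for any carrier. At 1 h, 0 of 190 were called in the difference of the responses in limma (0.0275% higher and 0% lower among all genes tested), with 11 (5.79%) below an unadjusted p of 0.05, beside 5.87% of all genes. At 3 h 0 were called (0.275% and 0.0826%), with 17 (8.95%) below an unadjusted p of 0.05, beside 10.0% of all genes. Median scaling over all probes shifted this difference by a median of 0.21 over all genes and likewise gave 0 calls. For Slc16a6, whose level in knockout cells at 0 h has only a bound, no size is given for this difference, which was not called (adjusted p = 0.186). For Slc25a37 the knockout response at 3 h exceeded the wild-type one by 0.36 (95% interval 0.03 to 0.68, limma adjusted p = 0.448) and for Slc25a30 0.33 (0.04 to 0.62, adjusted p = 0.427). For Slc20a1 it was 0.38 (−0.20 to 0.96), for Slc6a8 0.27 (−0.03 to 0.57), for Slc38a2 0.16 (−0.19 to 0.51) and for Slc29a1 0.04 (−0.30 to 0.37). Such intervals are wide beside some of the responses, as for Slc38a2, and less so for others, as for Slc29a1. They do not show that the genotypes respond alike.

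The genes left out of the set give a frame for these values. At 3 h Slc7a11, the cystine-glutamate exchanger, was higher by 0.94 ± 0.13 (limma adjusted p = 2.31e-05) in wild-type and 1.38 ± 0.13 (adjusted p = 8.01e-08) in knockout cells. Slc2a1, the glucose transporter GLUT1, was higher by 0.53 ± 0.10 (adjusted p = 9.16e-04) and 0.93 ± 0.10 (adjusted p = 7.42e-07), while Slc2a3 and Slc16a3 gave no call. Among 61 tested genes of other transporter families, 7 were higher and 1 lower at 3 h in each genotype. Over all genes tested the shares were 7.81% and 8.19% in wild-type and 8.25% and 10.1% in knockout cells. The organic anion transporter Slco4a1 was higher by 1.23 ± 0.10 (adjusted p = 7.81e-09) and 1.39 ± 0.10 (adjusted p = 8.90e-10), and the drug efflux pump Abcb1b by 0.79 ± 0.10 (adjusted p = 6.71e-06) and 1.27 ± 0.10 (adjusted p = 5.40e-09). Mfsd2a, a carrier of lysophospholipids, fell by 0.61 ± 0.10 (adjusted p = 1.12e-04) and by 0.75 ± 0.10 (adjusted p = 7.31e-06).

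Sodium pump subunits, whose gradient drives many of the carriers, had 1 of 4 tested genes higher in wild-type cells at 3 h, the regulatory subunit Fxyd5 at 0.57 ± 0.12 (limma adjusted p = 0.00262), and none in knockout cells. Of 11 tested chaperones and regulators of transporters, 1 was higher and 1 lower in wild-type and 3 higher and 2 lower in knockout cells. For both lists, the shares over all genes tested were 7.81% higher and 8.19% lower in wild-type and 8.25% and 10.1% in knockout cells. Sgk1, a kinase that raises the activity of many carriers, was higher by 0.44 ± 0.10 (adjusted p = 0.00351) and 0.85 ± 0.10 (adjusted p = 1.78e-06), and Oxsr1, a kinase that controls cation-chloride cotransport, fell by 0.50 ± 0.10 (adjusted p = 0.00152) and by 0.71 ± 0.10 (adjusted p = 2.71e-05). In all, 133 of the 190 solute carrier genes were called in no comparison, 46 in at least 1 TPA comparison and 20 in at least 1 genotype comparison. These are 70%, 24.2% and 10.5% of the carriers, beside 68.2%, 25.9% and 12.5% of all genes tested.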

How the data were processed

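Biotin-labelled RNA from 18 samples in 6 groups of 3 was measured on Illumina bead arrays. The intensity of each probe is the unlogged, non-normalized bead signal per the file headers, and the detection p-value is used as the authors deposited it. The authors' normalized table holds log2 values as deposited, by a method not given in the sources used here, and served as an alternative. No genome build of the array was named.

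The neqc function of limma 3.58.1 (R 4.3.3) removed background estimated through the detection p-values, added an offset of 16, applied quantile normalization and took log2. Each gene was represented by its brightest kept probe, and 56 carriers had several. A model of 6 group means over all 18 arrays gave 10 comparisons, with Benjamini-Hochberg adjustment over 10902 genes. The fit was tested on simulated data. Named are, per comparison, up to 12 genes in each direction with the largest differences among calls that hold without any 1 array and with non-overlapping groups, and the leading call of each class at 3 h. Up to 4 called genes of each companion list were eligible. Carriers named outside this rule were chosen after their values were seen. The classes, motifs, members and lists were chosen with earlier results of these data known. Alternatives were the authors' values, no background correction, a pair of median scalings, a stricter detection rule (p below 0.01 on 9 arrays), no detection filter, the mean of a gene's probes, a replicate block and each array left out. No slide information was used.

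Precision is limited by the 3 arrays per group. Array numbers were not treated as pairs, since the labels do not say that arrays of the same number belong together. In the data 15 of 18 arrays correlated best with arrays of their own number. A fit with array number as a replicate block is given below.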

Additional observations from a re-analysis of the deposited data

How the results depend on the processing

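The counts of called carriers depended most on the scaling. Median scaling over all probes gave 10 (wild type, 1 h), 17 (knockout, 1 h), 67 (wild type, 3 h), 26 (genotypes at 0 h), 10 (1 h), 0 (3 h) and 46 (mean), and scaling to the tested genes gave 7, 10 and 57 for those TPA comparisons and 6, 3 and 32 for the genotypes at 0 h, 3 h and as the mean. The authors' values gave 10 (knockout, 1 h), 1 (genotypes, 0 h) and 2 (genotypes, 1 h). For the genotypes, the stricter detection rule gave 1 at 0 h, 2 at 1 h and 3 at 3 h, no background correction and the mean of probes gave 2 at 1 h, and no detection filter gave 0 at 1 h. For the genotypes at 3 h, median scaling over all probes called 179 of all genes tested and scaling to the tested genes called 447. The cause of these shifts was not tested. Among the 44 named differences, 2 turned under median scaling over all probes, Slc41a2 at −0.012 and Slc35e3 at −0.0014 in wild-type cells at 3 h, and 11 lost their call there. Under each other setting at most 3 lost it.

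Leaving out 1 array gave 2 to 6 calls (wild type, 1 h), 3 to 6 (knockout, 1 h), 19 to 32 (wild type, 3 h), 20 to 29 (knockout, 3 h), 0 to 2, 0 to 1 and 1 to 4 (genotypes at 0 h, 1 h and 3 h) and 11 to 18 (mean). The arrays behind the low counts are named with the results, except for the genotypes at 3 h, where the count was 1 without array 3 of wild type, 2 without array 1 of wild type or array 2 of the knockout, and 3 without array 1 or 3 of the knockout. The response differences gave 0 calls in all of these fits. With array number as a replicate block, the counts were 7 (wild type, 1 h) and 1 (genotypes, 0 h), all 44 named differences kept their call, and 15 of 18 arrays correlated best with arrays of their own number. The median correlation of same-numbered pairs was 0.045 (−0.08 to 0.43, with 10 of 45 above 0.1) against −0.028 for other pairs, a hint from the data and not from the design.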
